A study of Mus musculus with 75 samples.

Results

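Dnmt3a, Dnmt3b, Dnmt1, Uhrf1, Tet1, Tet2, Tet3, Mbd1 and Mbd2 are 9 genes that write, maintain, remove or read DNA methylation. They were taken by name, before any filter on counts, and make up 9 of the 37310 gene identifiers in the cortex and nuclei files and of the 55487 in the hippocampus files. All 9 were found in every RNA library, and all 9 passed the low-count filter in each comparison made. The study compared C57BL/6 mice at postnatal day 21 that were wild type, Dnmt3a1-/-, Dnmt3a2-/- or Dnmt3a1_delta_N, where the last is named for the N terminus of DNMT3A1; how the alleles were made is not described in the labels used here. DNMT3A1 and DNMT3A2 are isoforms of 1 gene, and the shorter DNMT3A2 lacks the N-terminal end of DNMT3A1. The 26 RNA libraries used here came from cerebral cortex (3 Dnmt3a1-/-, 2 Dnmt3a2-/-, 3 Dnmt3a1_delta_N and 8 wild type), from hippocampus (3 Dnmt3a1-/- and 3 wild type) and from cortical neuron nuclei sorted with an antibody against NEUN (2 labelled Dnmt3a1-/- and 2 wild type).

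DNA methyltransferases put a methyl group on cytosine. DNMT3A and DNMT3B act on unmethylated sites, whereas DNMT1, guided by UHRF1, copies the mark to the new strand after replication. TET1, TET2 and TET3 oxidise methylcytosine, which begins its removal, and MBD1 and MBD2 bind methylated CpG sites and recruit repressor complexes. In neurons, DNMT3A lays down much of the methylation gained after birth, including methylation outside CpG sites.

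The wild type cortex libraries carry 3 series of title numbers: plain numbers, which were set against Dnmt3a1-/-, "r" numbers against Dnmt3a2-/- and "n" numbers against Dnmt3a1_delta_N. The labels themselves do not tie a series to a mutant. Nor do they name the animals behind the libraries, so a p-value here reflects variation among libraries, which may be technical. In RNA from whole tissue, fewer cells of a type and less RNA per cell cannot be told apart. Libraries held 8.7 to 39.0 M (mega) counts in genes. Reads that overlapped no counted gene feature were 28.0% to 30.4% of uniquely placed reads in the nuclei, against 8.4% to 10.8% in tissue. Whether these include reads in introns is not given in the sources used here. The wild type nuclei held 321 and 330 CPM (counts per 1000000 counts in all genes) of the 10 oligodendrocyte markers, against 14541 to 19231 in wild type cortex, while markers of excitatory neurons summed to 5076 and 5172 against 6571 to 7882.

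Dnmt3a is the gene the mutants target, and 2 of its 3 RefSeq starts (build GRCm38.p6) are shown because the counts sum all of its transcripts. The first start, called upstream here, has the promoter window chr12:3806730-3807029 (+ strand) and the last, called downstream, 84.8 kb further in, has chr12:3891494-3891793 (+ strand). Each window runs from 250 bases before the start to 50 after it. The Tet2 window, chr3:133544341-133544640 (- strand), is that of the other member whose cortical level differed in a mutant. Capitals mark CpG sites.
Dnmt3a upstream start: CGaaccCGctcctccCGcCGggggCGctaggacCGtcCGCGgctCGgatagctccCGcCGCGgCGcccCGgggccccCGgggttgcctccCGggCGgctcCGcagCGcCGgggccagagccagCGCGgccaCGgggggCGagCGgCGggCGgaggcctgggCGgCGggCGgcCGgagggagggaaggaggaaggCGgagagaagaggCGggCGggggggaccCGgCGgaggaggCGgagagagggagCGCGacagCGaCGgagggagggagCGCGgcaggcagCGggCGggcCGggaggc
Dnmt3a downstream start: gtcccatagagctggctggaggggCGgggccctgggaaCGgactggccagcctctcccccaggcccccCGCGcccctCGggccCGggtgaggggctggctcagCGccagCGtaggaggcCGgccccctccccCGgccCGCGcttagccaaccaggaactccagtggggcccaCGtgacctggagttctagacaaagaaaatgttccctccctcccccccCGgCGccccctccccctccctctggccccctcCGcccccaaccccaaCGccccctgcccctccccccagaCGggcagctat
Tet2: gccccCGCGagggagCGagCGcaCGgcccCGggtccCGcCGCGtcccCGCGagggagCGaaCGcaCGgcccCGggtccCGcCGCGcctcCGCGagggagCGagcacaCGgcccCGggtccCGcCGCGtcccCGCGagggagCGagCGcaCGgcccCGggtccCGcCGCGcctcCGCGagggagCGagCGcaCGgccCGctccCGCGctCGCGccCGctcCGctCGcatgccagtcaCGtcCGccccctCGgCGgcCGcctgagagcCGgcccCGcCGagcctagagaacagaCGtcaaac
The upstream Dnmt3a window held 46 CpG sites, more than 98.4% of the 32851 mouse promoter windows of the same length, whose median was 7. The downstream window held 18 CpG sites. The start not shown lies 180 bases after the first, and its window, which overlaps the upstream one, held 47. Tet2, with 57, had more than 99.8% of all windows. The table does not say which isoform each Dnmt3a start belongs to. Of the 9 genes, 7 had an entry (Dnmt3a, Dnmt3b, Dnmt1, Uhrf1, Tet1, Tet2 and Tet3).

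Dnmt1 and Uhrf1, the maintenance pair, each had 1 start whose window held TTTCGCGC, a letter string of the kind bound by E2F factors, searched on both strands (reverse GCGCGAAA). These are shown with the match in capitals, for chr9:20952574-20952873 (- strand) and chr17:56304063-56304362 (+ strand).
Dnmt1: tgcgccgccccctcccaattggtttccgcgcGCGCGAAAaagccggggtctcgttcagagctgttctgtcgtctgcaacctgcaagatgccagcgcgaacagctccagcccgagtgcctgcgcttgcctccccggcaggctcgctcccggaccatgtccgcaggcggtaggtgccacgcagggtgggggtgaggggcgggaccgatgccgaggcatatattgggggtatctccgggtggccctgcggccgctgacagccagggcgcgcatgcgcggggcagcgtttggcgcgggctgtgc
Uhrf1: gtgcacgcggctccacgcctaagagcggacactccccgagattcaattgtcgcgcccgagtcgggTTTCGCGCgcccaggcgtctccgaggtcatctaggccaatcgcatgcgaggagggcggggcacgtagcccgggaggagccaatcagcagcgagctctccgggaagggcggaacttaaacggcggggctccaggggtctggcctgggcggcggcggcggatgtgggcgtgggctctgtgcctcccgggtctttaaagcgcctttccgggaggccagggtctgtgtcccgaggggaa
The string stood in 106 of the 32851 windows (0.32%) and in none of the windows of the other 5 matched genes. A match describes letters, not binding.

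Dnmt3a itself was lower in Dnmt3a1-/- cortex and hippocampus and not measurably lower in the nuclei labelled Dnmt3a1-/-. In cortex the plain-numbered wild type libraries gave 152, 165 and 146 CPM, and the Dnmt3a1-/- libraries gave 73.2, 80.7 and 74.0 CPM. Every mutant library lay below every wild type library. The mutant level was 0.492 of wild type, a log2 fold change of -1.02 ± 0.07 (SE; 95% interval -1.18 to -0.87; edgeR quasi-likelihood test, p adjusted over all genes tested 1.2e-05). In hippocampus the wild type libraries gave 162, 149 and 134 CPM and the Dnmt3a1-/- libraries 71.5, 76.1 and 72.3 CPM, again with no overlap. That log2 fold change was -1.04 ± 0.09 (edgeR, adjusted p 1.1e-04), and it differed from the cortical one by -0.00 ± 0.11 (95% interval -0.23 to 0.22).

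In the neuron nuclei Dnmt3a was at 405 and 399 CPM in wild type and at 382 and 369 CPM in the libraries labelled Dnmt3a1-/-. Both labelled libraries lay below both wild type libraries, but by little: the log2 fold change was -0.10 ± 0.15, with a 95% interval of -0.40 to 0.21 that does not reach the cortical value. The difference between the effects in cortex and nuclei was itself past the threshold, at -0.96 ± 0.12 (edgeR interaction term, adjusted p 1.1e-04), as it was for 0.667% of the 17101 genes tested. The Dnmt3a counts in nuclei therefore do not show the decrease seen in cortex and hippocampus. A count that sums all transcripts cannot tell whether the label holds. These are called the libraries labelled Dnmt3a1-/- throughout. What the deposited counts in nuclei include of introns is not given in the sources used here.

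In the other mutants Dnmt3a stayed near its wild type level. Dnmt3a2-/- cortex gave 132 and 144 CPM against 153 and 145 in the "r" series, a log2 fold change of -0.12 ± 0.10 (95% interval -0.34 to 0.10). Dnmt3a1_delta_N cortex gave 135, 139 and 139 CPM against 147, 162 and 163 in the "n" series, with every mutant library below every wild type library. Its log2 fold change of -0.18 ± 0.07 (95% interval -0.33 to -0.03) had an unadjusted p of 0.026 and an edgeR adjusted p of 0.59. The log2 fold change in Dnmt3a1-/- cortex minus that in Dnmt3a2-/- was -0.91 ± 0.12, and minus that in Dnmt3a1_delta_N it was -0.86 ± 0.11 (edgeR interaction terms, adjusted p 6.1e-04 and 2.3e-04). Of 17101 genes, 0.0468% and 0.0409% differed so. Because a gene count sums both isoforms, it checks little of what the Dnmt3a2-/- and Dnmt3a1_delta_N labels state. The antisense genes Dnmt3aos and Dnmt3bos were listed at 0 counts in all 26 libraries.

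**Figure D1:**
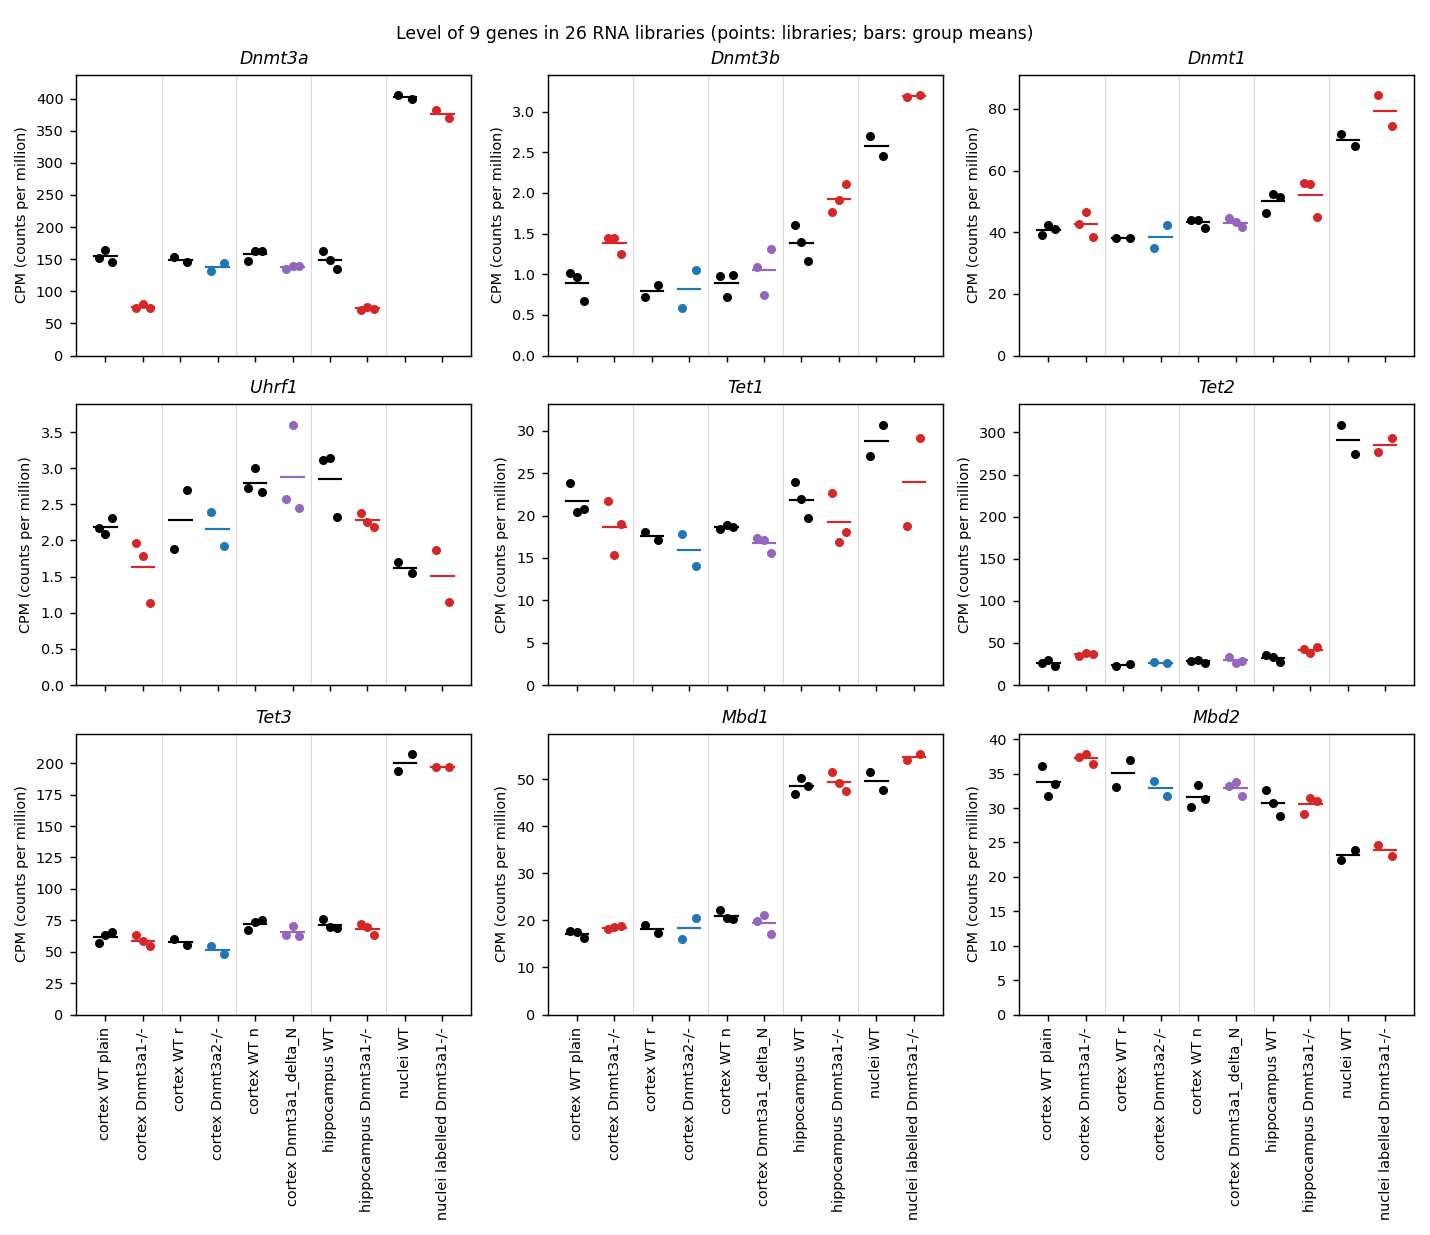
Level of each of the 9 genes in CPM (counts per 1000000, vertical axes, linear and starting at 0) in the 26 RNA libraries, by group along the horizontal axis; points are libraries and bars are group means. Dnmt3a sits between 71.5 and 80.7 in the Dnmt3a1-/- cortex and hippocampus libraries, and between 134 and 165 in all wild type tissue libraries.

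Among the members other than Dnmt3a, Tet2 was the one called in Dnmt3a1-/- cortex. With Dnmt3a, this made 2 of 9 members past an adjusted p of 0.05, where 17.9% of the 15933 genes tested were (9.86% without plain wild type replicate 3). A fit that blocks on the library number called 3 of 9 members and 31.0% of genes. Tet2, a dioxygenase that lacks the CXXC domain of TET1 and TET3, was at 26.5, 30.1 and 22.9 CPM in wild type and at 34.3, 38.3 and 36.8 CPM in Dnmt3a1-/- cortex. All mutant libraries lay above all wild type libraries. The log2 fold change was 0.46 ± 0.09 (95% interval 0.26 to 0.66; edgeR, adjusted p 0.0056), and leaving out any 1 library kept it between 0.38 and 0.56 with adjusted p of at most 0.03. Reads that overlapped no counted gene feature were also higher in the mutant libraries without overlap. They were 10.3% to 10.8% of uniquely placed reads against 9.38% to 10.2%, and in hippocampus 9.69% to 10.3% against 8.41% to 8.74%. Their part in the Tet2 values was not tested. Of all genes tested, 8.30% had a larger log2 fold change than Tet2.

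Hippocampus gave a Tet2 difference of similar size that missed the threshold. Wild type libraries were at 35.8, 33.8 and 27.8 CPM and Dnmt3a1-/- libraries at 42.7, 38.2 and 44.9 CPM, with no overlap. The log2 fold change was 0.36 ± 0.11 (95% interval 0.12 to 0.60; edgeR, unadjusted p 0.0064, adjusted p 0.1). Over the 10 alternatives its adjusted p ran from 0.028 to 0.34. It passed the threshold in 2 of them, at 0.43 without wild type replicate 1 (0.044) and at 0.36 with no low-count filter (0.028). With any other single library left out it lay between 0.26 (0.34, without wild type replicate 3) and 0.42 and was not called, and adjusted p was 0.13 with DESeq2 and 0.19 with a replicate block. Cortex and hippocampus differed by 0.08 ± 0.15, with a 95% interval of -0.22 to 0.39.

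Tet2 in nuclei was at 309 and 274 CPM in wild type and 277 and 293 CPM in the libraries labelled Dnmt3a1-/-. These values overlapped, with a log2 fold change of -0.03 ± 0.15 (95% interval -0.34 to 0.28). Its difference from the cortical effect was 0.46 ± 0.16, with an edgeR adjusted p of 0.15, or 0.049 with no low-count filter and 0.13 with RLE scaling or a replicate block. Tet2 was at 27.6 and 25.7 CPM in Dnmt3a2-/- cortex against 22.9 and 25.1 (log2 fold change 0.14 ± 0.11). In Dnmt3a1_delta_N cortex it was at 32.8, 26.7 and 28.2 CPM against 28.2, 29.5 and 26.2 (0.08 ± 0.09). The Dnmt3a1-/- effect exceeded the first by 0.30 ± 0.16 (95% interval -0.03 to 0.64; edgeR, adjusted p 0.59) and the second by 0.37 ± 0.15 (0.07 to 0.67; adjusted p 0.46), so these effects were not shown to differ.

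The other TET genes did not pass the test in any mutant. Tet1, which carries a CXXC domain, was at 23.8, 20.4 and 20.8 CPM in wild type and 21.7, 15.4 and 19.0 CPM in Dnmt3a1-/- cortex, with overlapping values. Its log2 fold change was -0.24 ± 0.11 (edgeR, adjusted p 0.17). Libraries with the same number deviated together in this comparison, and a fit that blocks on that number gave the same value an adjusted p of 0.033. Against all 8 wild type cortex libraries it was -0.05 (adjusted p 0.78). In the remaining mutant comparisons Tet1 had log2 fold changes from -0.27 to -0.15, all negative and none called. In the libraries labelled Dnmt3a1-/- the nuclei gave 18.8 and 29.2 CPM, against 27.0 and 30.7 in wild type. Tet3, whose transcript also has a CXXC form, was at 56.6, 63.5 and 65.3 CPM in wild type and 62.9, 58.6 and 54.8 CPM in Dnmt3a1-/- cortex, and its log2 fold change across the 5 mutant comparisons ran from -0.17 to -0.02.

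Dnmt3b, the other methyltransferase for unmethylated sites, was sparse, with 12 to 124 counts per library. In Dnmt3a1-/- cortex it was at 1.45, 1.45 and 1.25 CPM, above each wild type library at 1.02, 0.97 and 0.67 CPM. The log2 fold change of 0.59 ± 0.24 (95% interval 0.07 to 1.12) had an edgeR adjusted p of 0.11. Against all 8 wild type cortex libraries, which ran from 0.67 to 1.02 CPM, it was 0.68 (adjusted p 0.029), and in the other 10 alternatives it missed the threshold (0.47 to 0.67, adjusted p 0.068 to 0.33). Hippocampus gave 1.76, 1.91 and 2.11 CPM for Dnmt3a1-/- and 1.61, 1.40 and 1.16 CPM for wild type, with no overlap (0.49 ± 0.26; adjusted p 0.34). Nuclei gave 3.18 and 3.20 CPM in the libraries labelled Dnmt3a1-/- against 2.70 and 2.46 CPM (0.31 ± 0.24; adjusted p 0.76). Dnmt3b thus lay above wild type in each library labelled Dnmt3a1-/-, and in no preparation did the difference from its own wild type pass the threshold. Of all genes, 36.1% in cortex, 22.3% in hippocampus and 38.5% in nuclei had no overlap either, in 1 direction or the other.

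The maintenance pair did not pass the test in any mutant. Dnmt1 was at 39.2, 42.2 and 41.1 CPM in wild type and 42.8, 46.5 and 38.5 CPM in Dnmt3a1-/- cortex. Its log2 fold change was 0.06 ± 0.08, and the 95% interval of -0.12 to 0.23 bounds any change at this depth. Across the other 4 mutant comparisons it ran from 0.00 to 0.18. Uhrf1, with 23 to 121 counts per library, was at 1.96, 1.79 and 1.14 CPM in Dnmt3a1-/- cortex, below each wild type library at 2.17, 2.09 and 2.31 CPM. The log2 fold change of -0.47 ± 0.22 (95% interval -0.95 to 0.01) had an edgeR adjusted p of 0.16. Against all 8 wild type cortex libraries it was -0.59 (adjusted p 0.048), and without mutant replicate 3 it was -0.25 (0.47); over its 11 alternatives adjusted p ran from 0.048 to 0.47. In hippocampus it was -0.34 ± 0.22 (adjusted p 0.44).

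Uhrf1 is made mainly by dividing cells, and 15 markers of dividing cells were summed beside it. The sum was 39.7 to 42.5 CPM in Dnmt3a1-/- cortex and 50.0 to 59.1 CPM in the plain wild type series. In the "r" and "n" wild type series it was 45.9 to 47.2 and 49.2 to 57.5 CPM. Between "r" and plain, 3 of the 15 were called lower in "r" and 1 higher (median -0.19). In Dnmt3a1-/- cortex 5 of the 15 were called lower and 0 higher, against 8.91% of all genes called lower. Their median log2 fold change was -0.54, against 0.01 for all genes tested. Mki67, the proliferation antigen Ki-67, was at -1.09 ± 0.16 (edgeR, adjusted p 6.8e-04), Top2a, a topoisomerase of dividing cells, at -1.05 ± 0.16 (0.0011) and Cenpf, a kinetochore protein, at -0.85 ± 0.23 (0.022). In hippocampus 13 were tested and none was called (median -0.29), with sums of 50.2 to 56.5 CPM in mutant and 50.4 to 79.3 CPM in wild type. Blood markers summed to 338 to 522 CPM in Dnmt3a1-/- cortex against 523 to 831 CPM in the plain series. Of 7 tested, 2 were called lower, with a median log2 fold change of -1.24. In the "r" and "n" wild type series these markers summed to 229 to 271 and 220 to 710 CPM. Where 33.3% of all genes were called between "r" and plain, 4 of these 7 markers were lower in "r" (median -1.79). In hippocampus they summed to 267 to 373 CPM against 349 to 673 CPM, which overlapped, with 0 of 6 called and a median of -1.14. Of 10 endothelial markers 3 were called lower in cortex (median -0.12), where their sums overlapped at 930 to 1050 CPM against 963 to 1199 CPM. Their sums in the "r" and "n" wild type series were 802 to 822 and 880 to 1065 CPM. The part of dividing, blood or endothelial cells in the Uhrf1 values was not tested.

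The readers did not differ between Dnmt3a1-/- and wild type by the test. Mbd1, a reader that also binds unmethylated CpG in some forms, was at 17.7, 17.5 and 16.3 CPM in wild type and 18.1, 18.5 and 18.8 CPM in Dnmt3a1-/- cortex. That made a log2 fold change of 0.10 ± 0.08 (95% interval -0.07 to 0.28). Mbd2, a subunit of the NuRD repressor complex, was at 36.1, 31.7 and 33.5 CPM in wild type and 37.4, 37.8 and 36.4 CPM in mutant, or 0.14 ± 0.07 (-0.02 to 0.30). Both were slightly higher in each mutant library, without passing the threshold (edgeR, adjusted p 0.42 and 0.22). In all, 6 of the 9 members had no overlap between Dnmt3a1-/- and wild type cortex, where 36.1% of all genes had none. The same count was 3 of 9 in hippocampus (22.3% of all genes), 4 in nuclei (38.5%), 3 in Dnmt3a2-/- cortex (27.4%) and 2 in Dnmt3a1_delta_N cortex (12.8%).

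By comparison, fewer members were called elsewhere. In Dnmt3a1-/- hippocampus Dnmt3a alone passed the threshold, where 2.52% of 15727 genes did. In the nuclei 0 of 9 passed (39 genes, 0.246% of 15860, did). In Dnmt3a2-/- cortex 0 of 9 passed, against 1 gene of 15929 (0.00628%), and in Dnmt3a1_delta_N cortex 0 of 9, against 0 genes of 15881 (0%). The blocked fit called 0.749% of genes in Dnmt3a1_delta_N, and 0 of 9 members. In the edgeR fit 457 of 15929 genes in Dnmt3a2-/- and 1267 of 15881 in Dnmt3a1_delta_N cortex had an unadjusted p under 0.05. A share of 0.05 would pass where no gene differs, and the Dnmt3a2-/- count lies below that share. After adjustment DESeq2 called 7 and 44 genes. Among members, Dnmt3a in Dnmt3a1_delta_N was the one under an unadjusted 0.05 in these 2 mutants.

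**Figure D2:**
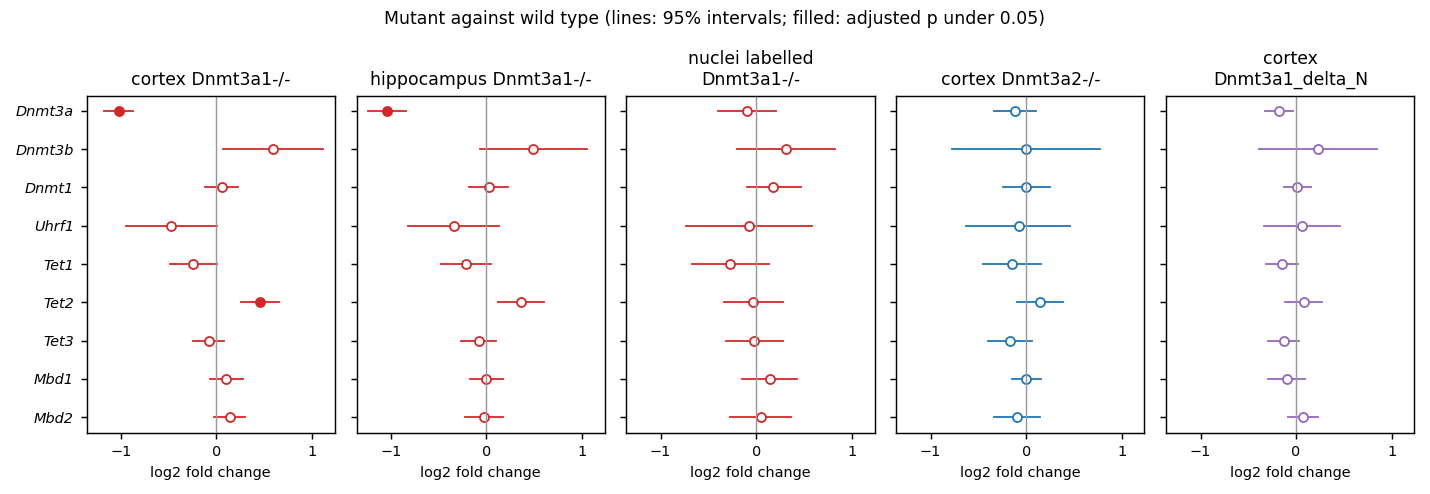
Log2 fold change of each gene, mutant over its own wild type libraries (horizontal axes, edgeR), in the 5 mutant comparisons; points are estimates, lines 95% intervals, and filled points have an adjusted p under 0.05. Filled points are Dnmt3a at -1.02 and Tet2 at 0.46 in Dnmt3a1-/- cortex and Dnmt3a at -1.04 in Dnmt3a1-/- hippocampus.

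Wild type series of cortex also differed from each other. Tet1, Tet3 and Mbd1 were the members called between them. Tet1 was lower in the "r" series (18.1 and 17.1 CPM) than in the plain series (-0.32 ± 0.09; edgeR, adjusted p 0.017), and lower in the "n" series (18.4, 18.9 and 18.7 CPM) by the same test (-0.25 ± 0.08; 0.039). Mbd1 was higher in "n" (22.2, 20.5 and 20.2 CPM) than in plain (0.25 ± 0.08; 0.033), and Tet3 was higher in "n" (67.6, 74.0 and 75.1 CPM) than in "r" (59.7 and 55.1 CPM; 0.32 ± 0.07; 0.0051). Of all genes, 33.3% were called between "r" and plain, 20.1% between "n" and plain and 27.3% between "n" and "r". The Tet1 and Mbd1 calls between "n" and plain missed the threshold with 5 and 6 of the 6 libraries left out in turn, and the Tet1 and Tet3 calls against "r" did so without "r" replicate 2 (adjusted p 0.16 each). Tet2 and Dnmt3a were not called in any of the 3.

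Members also differed between wild type preparations. Relative to the mean of the 3 wild type cortex series, all 9 members were called in wild type neuron nuclei, where 85.5% of 17317 genes were. Tet2 was the most changed member: 309 and 274 CPM in nuclei against 22.9 to 30.1 CPM in the 8 wild type cortex libraries, a 9.33-fold difference (log2 3.22 ± 0.07; edgeR, adjusted p 1.9e-16). Of all genes tested, 1.87% had a larger log2 fold change. Tet3 was at 194 and 207 CPM against 55.1 to 75.1 CPM (1.40 ± 0.07), and Dnmt3a at 405 and 399 CPM against 145 to 165 CPM (1.13 ± 0.07).

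Dnmt3b was at 2.70 and 2.46 CPM in wild type nuclei against 0.67 to 1.02 CPM in cortex (log2 1.31 ± 0.19), and Mbd1 at 51.6 and 47.7 CPM against 16.3 to 22.2 CPM (1.15 ± 0.07). Dnmt1 was higher by less, with 71.9 and 68.0 CPM against 38.1 to 44.1 CPM (0.52 ± 0.06). The Tet1 libraries in nuclei, at 27.0 and 30.7 CPM, lay above the cortical range of 17.1 to 23.8 CPM (0.32 ± 0.08), but against the plain series alone the difference was 0.11 (edgeR, adjusted p 0.36). Uhrf1 and Mbd2 were lower in nuclei. Uhrf1 was at 1.70 and 1.55 CPM against 1.88 to 3.00 CPM (-0.82 ± 0.18), and Mbd2 at 22.4 and 23.9 CPM against 30.1 to 37.0 CPM (-0.79 ± 0.08). Neurons against all cells and nuclear against whole-cell RNA cannot be told apart in this comparison.

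In wild type hippocampus the members were closer to cortex, and 5 of 9 were called, where 55.6% of 16158 genes were. Mbd1 stood out, with 46.9, 50.3 and 48.5 CPM against 16.3 to 22.2 CPM in cortex (log2 1.32 ± 0.06; edgeR, adjusted p 3.1e-11). The hippocampus files use another gene annotation, so tissue and annotation cannot be told apart for this gene or for any other member. Dnmt3b (1.61, 1.40 and 1.16 CPM; 0.60 ± 0.22), Dnmt1 (46.1, 52.5 and 51.4 CPM; 0.25 ± 0.06) and Tet2 (0.25 ± 0.08) were higher, and Mbd2 was lower (32.6, 30.7 and 28.9 CPM; -0.19 ± 0.07). Each of these 4 calls depended on the wild type cortex series or library used, Dnmt1 missing the threshold against "n" alone (adjusted p 0.06). Dnmt3a, at -0.11 ± 0.07, Tet1, Tet3 and Uhrf1 were not called.

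**Figure D3:**
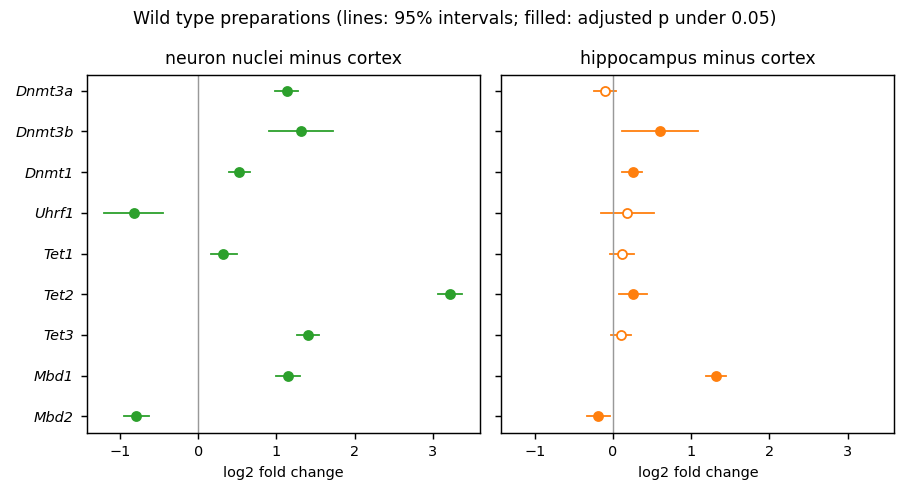
Log2 fold change of each gene between wild type preparations (horizontal axes, edgeR): neuron nuclei minus cortex on the left and hippocampus minus cortex on the right; points are estimates, lines 95% intervals, and filled points have an adjusted p under 0.05. Tet2 stands apart in nuclei at 3.22, and Mbd1 in hippocampus at 1.32.

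Genes that work with the 9 members were read from 5 lists. In Dnmt3a1-/- cortex 10 of the 78 listed genes that were tested (12.8%) were called, all of them higher, where 8.95% of all genes were called higher and 8.91% lower. Their median log2 fold change was 0.03, against 0.01 for all genes. Among helpers of base excision and demethylation 5 of 19 were higher: Gadd45g, a stress-induced cofactor of demethylation, at 6.92 CPM in wild type and 12.5 in mutant (0.84 ± 0.13; edgeR, adjusted p 0.0011), Gadd45b of the same family (0.61 ± 0.16; 0.02), Idh2, the mitochondrial isocitrate dehydrogenase that makes the TET cosubstrate 2-oxoglutarate (0.54 ± 0.08; 5.7e-04), and the base excision genes Neil1 and Xrcc1. Neil1 and Xrcc1 were named after their values were seen.

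Among partners of the methyltransferases 2 of 13 were higher, Zfp57, which guards imprinted methylation (0.59 ± 0.11; edgeR, adjusted p 0.0033), and Lig1, the DNA ligase of replication (0.43 ± 0.11; 0.019). Of the 12 genes listed as other methyl-CpG and CXXC readers only Mbd6, whose domain is related to that of Mbd1, was called (0.57 ± 0.08; 5.4e-04). Its place in the list does not mean that it binds methylated CpG. In the methyl donor cycle Shmt1, a serine hydroxymethyltransferase of folate metabolism, was higher (0.67 ± 0.20; 0.033). None of the 18 NuRD and corepressor subunits was called.

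Hippocampus gave 3 of 78 related genes called, all higher (3.8%, against 1.69% of all genes called higher). They were Gadd45g at 9.5 CPM in wild type and 16.3 in Dnmt3a1-/- (0.77 ± 0.12; edgeR, adjusted p 0.0073), Idh2 (0.58 ± 0.10; 0.0079) and Mbd6 (0.54 ± 0.09; 0.0077). In the nuclei 1 of 78 was called (1.3%, against 0.246% of all genes, a share that ran from 0.0245% to 2.23% with 1 library left out). It was Gatad2b, a NuRD subunit, at 11.1 CPM in the libraries labelled Dnmt3a1-/- and 5.34 CPM in wild type (1.05 ± 0.19; 0.03). In Dnmt3a2-/- and Dnmt3a1_delta_N cortex 0 of 79 were called. Markers of choroid plexus, a tissue beside cortex and hippocampus, were summed as well. Sums were 828 to 2021 CPM in Dnmt3a1-/- cortex against 125 to 758 CPM, and 62.2 to 1864 CPM in hippocampus against 79.9 to 110 CPM. None of the 10 tested in cortex or the 9 in hippocampus was called. Dnmt3a2-/- cortex gave 18.5 to 1618 CPM against 25.3 to 277 CPM, and Dnmt3a1_delta_N cortex 84.3 to 952 CPM against 34.0 to 410 CPM. The part of choroid plexus in the values of the related genes was not tested.

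**Figure D4:**
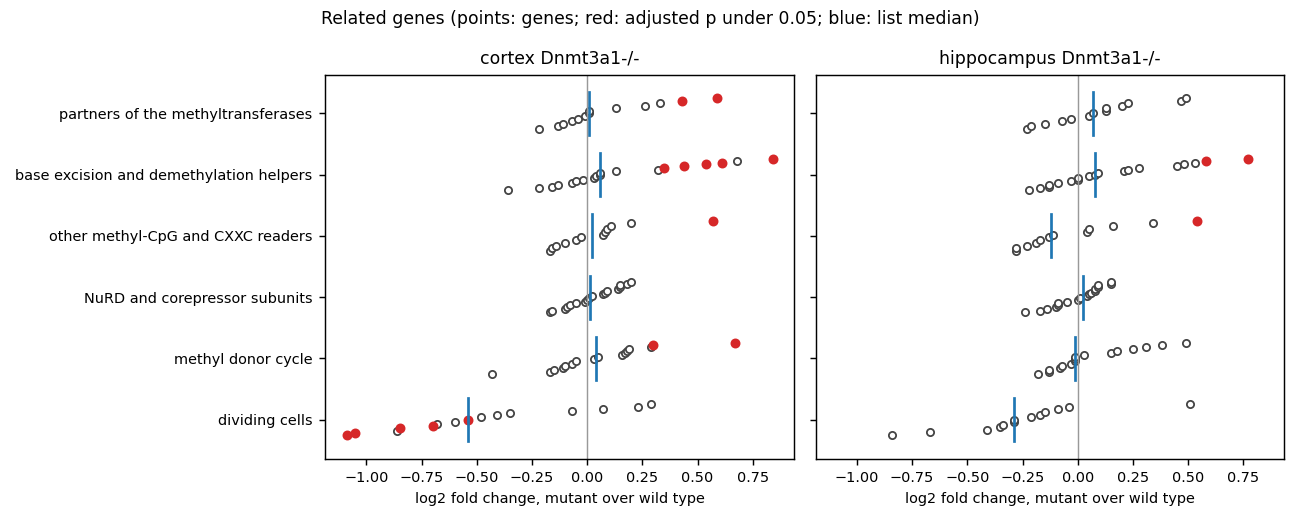
Log2 fold change, Dnmt3a1-/- over wild type (horizontal axes, edgeR), of the genes in 5 lists related to the members and of 15 markers of dividing cells, in cortex (left) and hippocampus (right); each point is a gene, red points have an adjusted p under 0.05 and blue bars are list medians. Red points of the 5 related lists lie to the right of 0, and those of dividing cells, in cortex, to the left.

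The genes whose pattern was most like that of a member were ranked by Pearson's r over the 16 cortex libraries, after each of the 3 sets of mutant and wild type libraries was centred on its own mean, and they are a description only. Mutant and wild type libraries of a set were centred together, so the difference between them remains in r. Depth varied within a set, from 11.7 to 26.8 M counts in genes in that of Dnmt3a1-/-. For Dnmt3a the nearest were Ncan (r = 0.953), Fam174b (0.949) and Tagln3 (0.947). For Tet2 they were Ankrd16 (0.945), Tbcd (0.937) and Cirbp (0.936), for Dnmt1 Sart1 (0.918), Pnpla6 (0.897) and Wdr81 (0.894), and for Tet1 Dbpht2 (0.909), Ttbk2 (0.9) and Nr3c1 (0.895). Dnmt3b was nearest to Rcc1l (0.923), Zfp821 (0.896) and Fxyd1 (0.88), and Uhrf1 to Rpl22l1 (0.884), Rwdd1 (0.854) and Kti12 (0.838). The nearest genes of Tet3 were Zfp174 (0.838), Zc3h13 (0.803) and Csnk2a2 (0.795), those of Mbd1 included Rpap1 (0.78) and Sprtn (0.778), and those of Mbd2 Anapc15 (0.805), Skap2 (0.801) and Pgghg (0.793). No member was among the nearest of another, and the highest r between a pair of members was 0.59.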

How the data were processed

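Polyadenylated RNA was sequenced from cortex, hippocampus and NEUN-sorted cortical nuclei (TruSeq stranded kit, per the labels' protocols). The deposited values are counts, whole reads per gene and library; the submitters' processing notes name STAR 2.5.4a, HTSeq 0.11.0 and build mm9, while the annotation release and the strand setting are not given in the sources used here. The other 49 of 75 samples were not analysed here. Lines that name no gene (21.1% to 37.0% of reads) were left out.

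Each comparison was fitted on all genes with edgeR 4.0.16 (filterByExpr, TMM, robust quasi-likelihood test, Benjamini-Hochberg adjustment, threshold 0.05) in R 4.3.3, and the script was tested on simulated data. Hippocampus against cortex and the joint fit behind the interaction terms used the 32601 identifiers shared by both annotations. Nuclei against cortex used the identifiers common to the nuclei and cortex files. CPM values are per 1000000 gene counts without TMM. Alternatives were DESeq2 1.42.0, RLE scaling, no filter, a replicate block, other wild type cortex libraries and leaving out each library. Named are all 9 members, up to 3 called genes per related list and direction, and the 3 genes nearest each member, of which some are not reported here. The main fits did not pair libraries by number, and a block on that number was an alternative only. A pairing was read as borne out where, with 3 or more pairs, every pair's deviations correlated above 0.1. This held for Dnmt3a1-/- cortex (0.184 to 0.376) and Dnmt3a1_delta_N (0.24 to 0.419). With 2 pairs the check gives 1 value for both, so no pairing was taken for nuclei (0.297) or Dnmt3a2-/- (0.111). Replicates differed beyond counting noise in every pair. The genes and lists were chosen with earlier results of these data known. Promoter windows are RefSeq's. Counts without molecular identifiers limit precision most for Dnmt3b and Uhrf1.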

Additional observations from a re-analysis of the deposited data

Results flagged for a closer look

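Dnmt3a had an effect in cortex that differed from its effect in sorted nuclei, by the edgeR interaction term. Dnmt3a1-/- minus wild type was -1.02 in cortex and -0.10 in the libraries labelled Dnmt3a1-/- of nuclei, a difference of -0.96 ± 0.12 (adjusted p 1.1e-04) in the joint fit. It was past the threshold under RLE scaling, without a low-count filter and with the replicate block (adjusted p 1.6e-07 to 3.5e-04). The cause was not tested.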

How the results depend on the processing

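Dnmt3a in Dnmt3a1-/- cortex and hippocampus and Tet2 in Dnmt3a1-/- cortex were called under each alternative run, as were all 9 members in wild type nuclei against cortex without either nuclei library; Tet1 was not called there against the plain series alone (adjusted p 0.36). Of member fold changes under an alternative, 584 kept direction and side of the threshold, 33 fell short of it, 8 passed it and 44 changed sign. Depth limits Dnmt3b and Uhrf1 most, and 2 against 2 libraries limit nuclei and Dnmt3a2-/-.

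The replicate block moved the share of genes called to 31.0% in Dnmt3a1-/- cortex (17.9% without it), 0.749% in Dnmt3a1_delta_N (0%), 0.345% in Dnmt3a2-/- (0.00628%), 1.56% in hippocampus (2.52%) and 4.67% in nuclei (0.246%). Correlations of same-numbered libraries bear out a pairing in the first 2 of these. In hippocampus they were -0.0556, 0.272 and 0.0261; in nuclei (0.297) and Dnmt3a2-/- (0.111) both pairs give 1 value, so the libraries there share only a number. Among members in mutants it changed only the call of Tet1 in Dnmt3a1-/- cortex (adjusted p 0.033). Between wild type series it gave 2 members called for "r" and 0 for "n" against plain (1 and 2 without it), and it turned Dnmt3b in Dnmt3a2-/- to 0.01. No low-count filter gave 0.277% of genes in Dnmt3a2-/-, 0.0706% in Dnmt3a1_delta_N, 3.33% in hippocampus (2 members) and 1.02% in nuclei, and 2 members whose effects differed between cortex and nuclei. DESeq2 gave 0.0303%, 0.569%, 4.0% and 0.426% in that order, and 3 members in wild type hippocampus against cortex (5 with edgeR). All 8 wild type cortex libraries gave 4 members in Dnmt3a1-/- cortex and 0.0120% of genes in Dnmt3a2-/-. Against the plain or the "n" series alone, 2 or 1 members were called in hippocampus.

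With each library left out, the share of genes called ran from 9.86% (without plain wild type replicate 3; 11.4% without mutant replicate 2) to 16.8% in Dnmt3a1-/- cortex, 0.155% to 0.848% in Dnmt3a2-/-, 0% to 0.0123% in Dnmt3a1_delta_N, 0.539% (without mutant replicate 2) to 4.89% (without wild type replicate 1) in hippocampus and 0.0245% (without wild type replicate 1) to 2.23% (without labelled replicate 2) in nuclei. Between wild type series it ran from 16% to 33.8% ("r" against plain) and 7.06% to 29.9% ("n" against "r"), both lowest without "r" replicate 2. Members called ran from 1 to 2 in Dnmt3a1-/- hippocampus, 0 to 2 for "r" against plain, 0 to 1 for "n" against plain, 0 to 2 for "n" against "r" and 2 to 5 for hippocampus against cortex.

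The sign changes were of members not called, and the cause was not tested. Without a filter Dnmt1 in Dnmt3a2-/- was -0.00 and Mbd1 in hippocampus -0.00 (-0.00 with RLE, -0.01 with DESeq2); Dnmt3b in Dnmt3a2-/- was 0.02 with DESeq2. With all 8 wild type cortex libraries Mbd1 was -0.01 in Dnmt3a1-/-, Dnmt1 -0.11 and Tet2 -0.01 in Dnmt3a2-/-, and Tet3 0.02, Mbd1 0.04 and Mbd2 -0.02 in Dnmt3a1_delta_N. In hippocampus against cortex Tet1 was -0.06 against plain, and Uhrf1 -0.00 and Tet3 -0.05 against "n". The cortex-hippocampus difference of Dnmt3a was 0.04 with RLE and 0.00 without a filter. Ranges with a library left out were, in Dnmt3a1-/- cortex, Dnmt1 -0.02 to 0.11. In Dnmt3a2-/- they were Dnmt1 -0.13 to 0.13, Dnmt3b -0.43 to 0.37, Uhrf1 -0.30 to 0.18, Tet1 -0.35 to 0.02 and Mbd1 -0.17 to 0.15. In Dnmt3a1_delta_N they were Dnmt1 -0.01 to 0.03, Tet2 -0.01 to 0.15 and Uhrf1 -0.13 to 0.15. In hippocampus they were Dnmt1 -0.02 to 0.11, Mbd1 -0.02 to 0.02 and Mbd2 -0.06 to 0.03. In nuclei they were Tet1 -0.62 to 0.02, Tet2 -0.12 to 0.07, Tet3 -0.06 to 0.01, Mbd2 -0.00 to 0.10 and Uhrf1 -0.50 to 0.20.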

Other observations

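The same 5 lists of related genes were read in wild type nuclei against wild type cortex, where 85.5% of all genes were called. Of 79 listed genes 51 were higher in nuclei and 20 lower (89.9% called), with a median log2 fold change of 0.57 against -0.02 for all genes tested. The genes named here were chosen after their values were seen. Uhrf2, the paralog of Uhrf1, was higher by 1.68 on the log2 scale (edgeR, adjusted p 1.0e-13), whereas Uhrf1 was lower. Mbd6 was higher by 2.37 (5.6e-15) and Mbd3 was lower, at -1.59 (5.7e-13). Among repair genes Mbd4, a glycosylase, stood at 2.15 (1.3e-11) and Neil3 at -4.52 (8.6e-06). In the methyl donor cycle Mat2a, which makes S-adenosylmethionine, stood at 1.99 (3.8e-13) and Cbs at -5.45 (4.3e-13).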
